A study of Oryza sativa Indica Group with 2 samples.

Results

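CYP714B1, CYP714B2 and CYP714D1, cytochrome P450 enzymes that act on gibberellins, and ARF12, an auxin response factor, were followed in rice seedlings that overexpress the transcription factor OsGRF7. They were found by the primary protein name that the gene table gives to each row, which left 4 genes of 35677. RNA of Indica rice seedlings, taken at tillering, was sequenced in 2 libraries. The first came from the wild type (WT, 1 library) and the second from the transgenic line GRF7OE-1 (GRF7OE, 1 library). Both kinds of plant were grown in Wuhan between May and October. The labels name 1 transgenic line, and give neither the promoter of the transgene nor the number of plants behind each library. The study concerns OsGRF7 and its microRNA regulator miR396e in plant architecture. Each group being 1 library, the differences have no replicate check, and the conditions could not be tested.

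Gibberellins promote stem elongation, and plants set their level by making, modifying and destroying them. CYP714B1 and CYP714B2 are gibberellin 13-oxidases, which add a hydroxyl group to gibberellin precursors and so steer synthesis toward the less active hydroxylated forms. CYP714D1, also called EUI1, is an epoxidase that inactivates gibberellins that lack this hydroxyl group, and rice without it has an elongated uppermost internode. ARF12 belongs to the auxin response factors, which bind the promoters of auxin-regulated genes. With ARF6, ARF17 and ARF25 it is a known target of the microRNA miR167 in rice.

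In the GRF7OE library CYP714B1, CYP714D1 and ARF12 had more transcript than in WT, and CYP714B2 had less. Levels are given as the deposited FPKM, which divides fragments by transcript length and sequencing depth. A fold is a plain FPKM ratio, followed in brackets by its 95% exact (Clopper-Pearson) interval from the reads. These intervals cover counting error only, not the difference between plants. In bulk tissue, fewer cells that express a gene and less of its RNA per cell cannot be told apart.

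CYP714B1 (OS07G0681300, chromosome 7) was at 0.573 FPKM in WT and 2.21 FPKM in GRF7OE. The values rest on about 4 reads in WT and about 15 in GRF7OE. The ratio was 3.85-fold higher in GRF7OE [1.23 to 15.96], and the interval is this wide because of the reads in WT. It was the member with the lowest level in both libraries. All 4 members passed the filter of 1 FPKM on average, but CYP714B1, with a mean of 1.39 FPKM, passed it through the GRF7OE library alone.

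CYP714B2 (OS03G0332100, chromosome 3) was at 7.53 FPKM in WT and 5.11 FPKM in GRF7OE, from about 303 and 209 reads. It was 1.47-fold lower in GRF7OE [1.23 to 1.77]. This is the direction opposite to that of CYP714B1, the other 13-oxidase. CYP714D1 (OS05G0482400, chromosome 5) was at 1.41 FPKM in WT, from about 39 reads, and at 2.43 FPKM in GRF7OE, from about 63. It was 1.72-fold higher in GRF7OE [1.14 to 2.64].

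ARF12 (OS04G0671900, chromosome 4) was at 2.39 FPKM in WT and 6.61 FPKM in GRF7OE, from about 67 and 175 reads. It was 2.77-fold higher in GRF7OE [2.08 to 3.73]. Of the 3 members that were higher, ARF12 had the largest difference in level, 4.22 FPKM. The intervals of all 4 members leave out 1, as do those of many genes: of the 23363 genes with an interval, 24.4% were higher beyond counting error and 25.3% lower. The table gives OsARF8 as another name of this gene, from an older numbering. It is a different gene from the one named Auxin response factor 8 (OS02G0628600), which was at 16.3 FPKM in WT and 17.7 FPKM in GRF7OE.

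**Figure D1:**
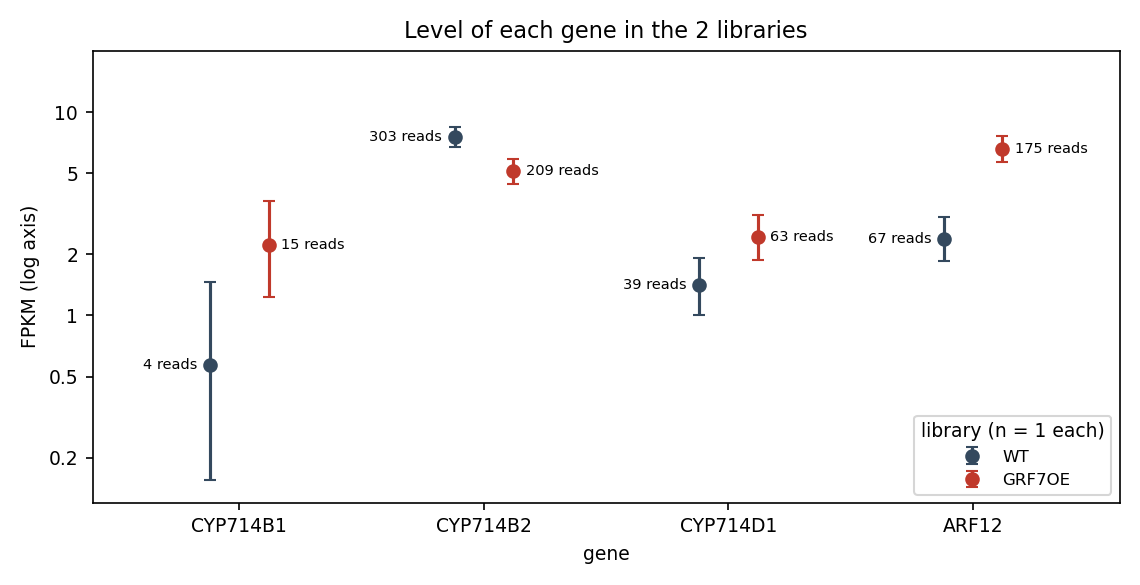
Level of the 4 genes in FPKM (log axis) in the WT and GRF7OE libraries, 1 library each, with the number of reads beside each point and 95% exact Poisson intervals as bars. CYP714B1 has the longest bars, from 4 and 15 reads, and CYP714B2 is the gene whose GRF7OE point lies below its WT point.

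The order of the levels differed between the libraries. In WT it was CYP714B2, ARF12, CYP714D1 and CYP714B1, from high to low. In GRF7OE ARF12 came first, then CYP714B2, CYP714D1 and CYP714B1. The plot of levels by library shows the counting interval of each level. Overlap of such intervals does not show that levels are equal, and the difference between levels was not tested. In WT the interval of CYP714B2, 6.71 to 8.43 FPKM, lay above that of ARF12, 1.85 to 3.03 FPKM. The interval of CYP714D1, 1.002 to 1.93 FPKM, overlapped those of ARF12 and of CYP714B1, 0.156 to 1.47 FPKM. In GRF7OE ARF12 (5.67 to 7.66 FPKM) overlapped CYP714B2 (4.44 to 5.85 FPKM), and CYP714D1 (1.87 to 3.11 FPKM) overlapped CYP714B1 (1.24 to 3.64 FPKM). All 4 genes were modestly expressed. In WT 30.6% of all genes in the table were below CYP714B1 and 61.2% below CYP714B2.

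The gene model behind the CYP714B1 value is short. Its protein has 116 residues in the table, against 532 for CYP714B2 and 577 for CYP714D1. The protein of ARF12 has 454, against 908 for ARF6, 917 for ARF17 and 181 for ARF25 of the miR167 group. Among the 186 rows named as a cytochrome P450 with a family number the median was 507 residues, and 7 rows had as few as CYP714B1 or fewer. In the deposited columns 1 FPKM stood for about 6.79 reads of CYP714B1 in GRF7OE, against 40.9 reads of CYP714B2, 25.9 of CYP714D1 and 26.5 of ARF12. At a given FPKM, CYP714B1 thus had the fewest reads of the 4 genes. These reads do not follow protein length among the other members, and transcript lengths were not analysed here. The annotation of the row also differs from all others. Of the 18307 rows with a Swissprot description it was the 1 row with no Swissprot accession, and its best match in the NR protein collection is a gene of another identifier (Os03g0838500). No other row carries an MSU identifier of any of the 4 genes.

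The 13-oxidases together had a slightly lower summed FPKM in GRF7OE than in WT. The summed FPKM of CYP714B1 and CYP714B2 was 8.10 in WT and 7.32 in GRF7OE, 1.11-fold lower. CYP714B1 made up 7.07% of this sum in WT and 30.2% in GRF7OE. The higher level of CYP714B1 by 1.63 FPKM offset part of the difference of -2.42 FPKM in CYP714B2. The CYP714B1 part rests on about 4 reads in WT and 15 in GRF7OE. Its GRF7OE level alone had an interval of 1.24 to 3.64 FPKM, and the sum is given without an interval. CYP714B1's ratio was 5.68 times that of CYP714B2, with a 95% exact conditional interval of 1.78 to 23.8 from the reads.

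Ratios were compared in this way in all 6 pairs of the 4 genes, and the interval left out 1 in 3 of them, each a pair with CYP714B2. ARF12's ratio was 4.08 times that of CYP714B2 [2.90 to 5.79], and CYP714D1's was 2.54 times that of CYP714B2 [1.61 to 4.04]. CYP714B1's ratio was 1.39 times that of ARF12 [0.423 to 5.97] and 2.24 times that of CYP714D1 [0.649 to 9.93]. ARF12's was 1.61 times that of CYP714D1 [0.954 to 2.69]. The reads thus separated CYP714B2 from the other 3 genes and left the order among those 3 unresolved.

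With 1 FPKM added to each value before taking log2, which understates the ratio of low genes, the members had log2 ratios of 1.03 for CYP714B1, -0.48 for CYP714B2, 0.51 for CYP714D1 and 1.17 for ARF12. CYP714B1 and ARF12 were thus past 2-fold on this scale. Of the 23397 genes that averaged 1 FPKM or more, 3.24% were at least 2-fold higher in GRF7OE and 1.25% at least 2-fold lower on this scale. As plain FPKM ratios the shares were 5.13% and 2.3%. Among genes that averaged 1 to 5 FPKM, where CYP714B1, CYP714D1 and ARF12 lie, 3.99% were at least 2-fold higher on the log2 scale and 8.87% as a plain ratio. At 5 to 20 FPKM, where CYP714B2 lies, these shares were 2.83% and 3.75%, and at 20 FPKM or more 3.04% and 3.31%. Passing 2-fold as a plain ratio was thus more common at the level of CYP714B1 and ARF12 than at higher levels. ARF12 was exceeded by 501 genes (2.14%) and CYP714B1 by 721 (3.08%). CYP714D1 was exceeded by 2663 genes, 11.4%. CYP714B2 had 1795 genes, 7.67%, with a lower log2 ratio. CYP714B1 came to 0.97, under 2-fold, with both libraries scaled to the same FPKM sum.

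**Figure D2:**
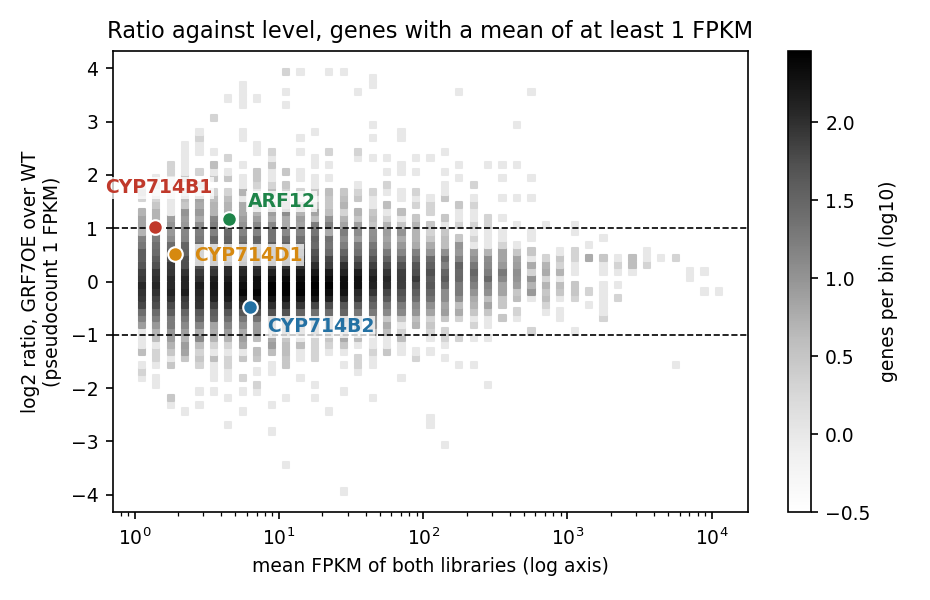
Log2 ratio of GRF7OE over WT (pseudocount 1 FPKM) against the mean FPKM of both libraries (log axis) for 23397 genes, as the number of genes per bin in grey (ratios past 4 are drawn at the edge), with the 4 genes in colour and dashed lines at 2-fold. ARF12 and CYP714B1 lie just above the upper line, at 1.17 and 1.03, and CYP714D1 and CYP714B2 lie between the lines.

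The authors' deposited table, whose p-values compare these 2 libraries and not the conditions, marks none of the 4 genes as significant. That table calls 1.63% of the 25818 rows with a status of OK. For ARF12 the authors' deposited table gives a p-value of 0.00155 and an FDR of 0.0832, above its limit of 0.05, and 533 rows have a smaller p-value. For CYP714B1 the authors' deposited table gives 0.0459 and an FDR of 0.615, with 2087 rows below it. The FDR in the authors' deposited table is 0.929 for CYP714D1 and 0.934 for CYP714B2.

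The table names 3 further CYP714 rows, all of them under 1 FPKM on average. CYP714C1 (OS12G0118900) was at 0.639 FPKM in WT and 0.753 FPKM in GRF7OE, from about 12 and 14 reads. Of the pair of rows named CYP714C2, OS12G0119000 had about 8 reads in WT and 15 in GRF7OE. OS11G0119700 had about 5 and 2 reads. The counting interval of the ratio included 1 in each of these rows, so a difference was not detectable at this depth. Over all 6 CYP714 rows the summed FPKM was 10.4 in WT and 10.9 in GRF7OE. Of the cytochrome P450 rows 100 averaged 1 FPKM or more. Among these, 10 were at least 2-fold higher on the log2 scale and 4 lower (10% and 4%), against 3.24% and 1.25% of all genes. CYP714B1 is itself 1 of these 10, from about 4 reads in WT, so the 10% is not separate from the member. Among the 100 rows CYP714B1 ranked 10 from the top, CYP714D1 28 and CYP714B2 85. The 3 CYP714 members share 6 gene ontology terms in the table, and ARF12 has none of these.

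The other gibberellin genes were mostly lower in GRF7OE. The list of synthesis and signalling genes holds 13 genes, of which 9 averaged 1 FPKM or more. The log2 ratio was below 0 in 8 of these 9, against 51.7% of all genes, and none was past 2-fold. Of these 9 genes 6 were lower beyond counting error, as were 25.3% of all genes, a share that depends on the depth of each gene. The list's median was -0.48, against -0.01 over all genes. The ent-kaurene oxidase KO2 was 1.91-fold lower [1.73 to 2.12] and KAO, which makes the precursor that the 13-oxidases and 20-oxidases share, 1.55-fold lower [1.23 to 1.96]. KAO was at 5.40 FPKM in WT and 3.48 FPKM in GRF7OE. GA20ox1 and GA20ox2, which act on the same precursors, were 1.93-fold [1.62 to 2.30] and 1.85-fold lower [1.45 to 2.37]. The exception was GID2, the F-box protein that marks the DELLA repressor SLR1 for breakdown. It was at 40.6 FPKM in WT and 50.9 FPKM in GRF7OE, 1.25-fold higher [1.16 to 1.35].

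Among the gibberellin 2-oxidases, which inactivate gibberellins by another reaction than CYP714D1, 3 of 11 rows averaged 1 FPKM or more. Their median log2 ratio was -0.33. OS01G0757200 was 1.93-fold lower [1.48 to 2.53] and OS04G0407800 1.29-fold lower [1.04 to 1.60]. OS05G0208550 was 1.17-fold higher [0.632 to 2.17], within counting error. Among the 8 rows below the filter OS05G0514600 was higher, from about 11 reads in WT and 31 in GRF7OE, by 2.87-fold [1.40 to 6.33]. The 2-oxidases that passed the filter and lay beyond counting error were thus lower, opposite to CYP714D1. OS05G0514600, higher like CYP714D1, was chosen from the rows below the filter after its value was seen. Over all genes with an interval, 24.4% were higher beyond counting error and 25.3% lower, shares that depend on the depth of each gene.

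**Figure D3:**
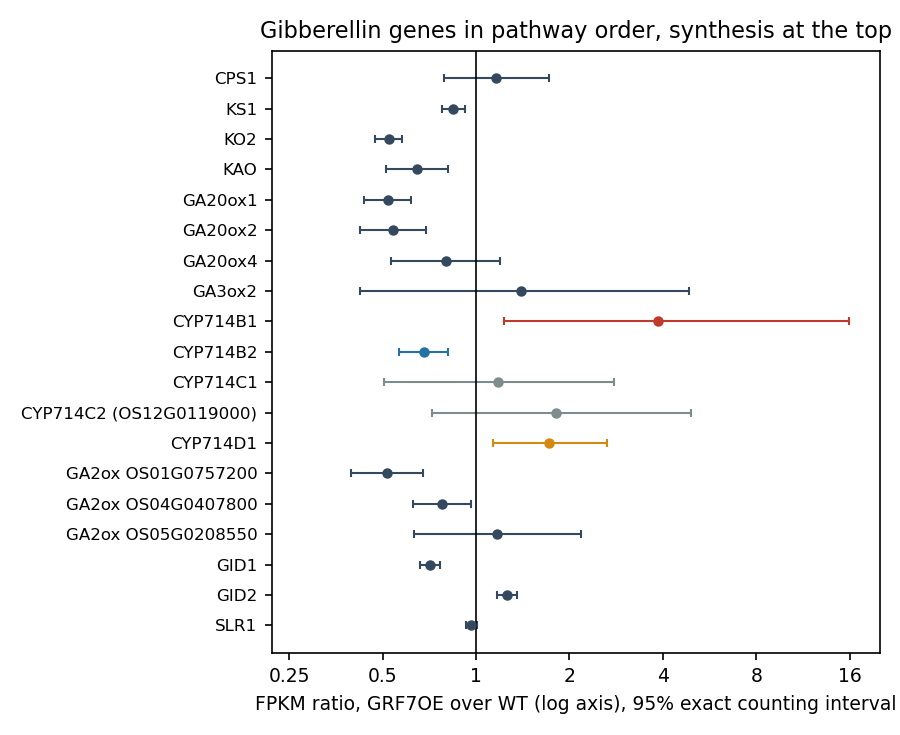
FPKM ratio of GRF7OE over WT (log axis) with 95% exact counting intervals for gibberellin genes, with synthesis at the top, then the CYP714 rows, the gibberellin 2-oxidases with a mean of at least 1 FPKM and the signalling genes. GA3ox1, GA20ox3 and 1 of the CYP714C2 rows are not drawn. CYP714B1 (3.85) and CYP714D1 (1.72) lie right of 1 with intervals that leave it out, and KO2, KAO, GA20ox1, GA20ox2 and CYP714B2 lie left of it.

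ARF12 stood at the upper end of its family. Of 25 rows named as auxin response factors 24 averaged 1 FPKM or more, and 20 of these had a log2 ratio below 0, 83.3% against 51.7% of all genes. The list's median was -0.24. ARF12 was the 1 row at least 2-fold higher on the log2 scale, and ARF5 the 1 at least 2-fold lower. Over all genes these shares were 3.24% and 1.25%. On the log2 scale the gap between ARF12 and the next of the 24 rows, ARF8 at 0.11, was 1.05. ARF13, left out by the filter, lay between them at 0.34, from about 7 reads in WT and 18 in GRF7OE. Of the 24 rows ARF12 was the 1 higher beyond counting error and 14 were lower beyond it. Over all genes these shares were 24.4% and 25.3%, and such shares depend on the depth of each gene. ARF5 was at 20.5 FPKM in WT and 8.73 FPKM in GRF7OE, 2.35-fold lower [2.15 to 2.57]. ARF11, the rice counterpart of MONOPTEROS, which patterns veins and organs in Arabidopsis, was 2.05-fold lower [1.62 to 2.61], and ARF21 (OS08G0520550) 1.61-fold lower [1.46 to 1.77]. ARF21 has another row of that name, OS08G0520500, so how reads were split between both is uncertain.

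ARF12 was among the least expressed of its family. By FPKM it ranked 24 of 25 rows in WT and 18 of 25 in GRF7OE, and it made up 0.446% and 1.49% of the family's summed FPKM. The other genes of the miR167 group, looked up after their values were seen, were lower or level in GRF7OE. ARF6 was at 25.8 FPKM in WT and 20.7 FPKM in GRF7OE, with a log2 ratio of -0.31. ARF17 was at 33.2 FPKM in WT and 28.1 FPKM in GRF7OE, with -0.23. ARF25 was at 19.2 and 18.5 FPKM, with -0.05, within counting error. Together with ARF12 they summed to 80.7 FPKM in WT and 73.9 FPKM in GRF7OE. Of that sum ARF12 was 2.96% in WT and 8.95% in GRF7OE.

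**Figure D4:**
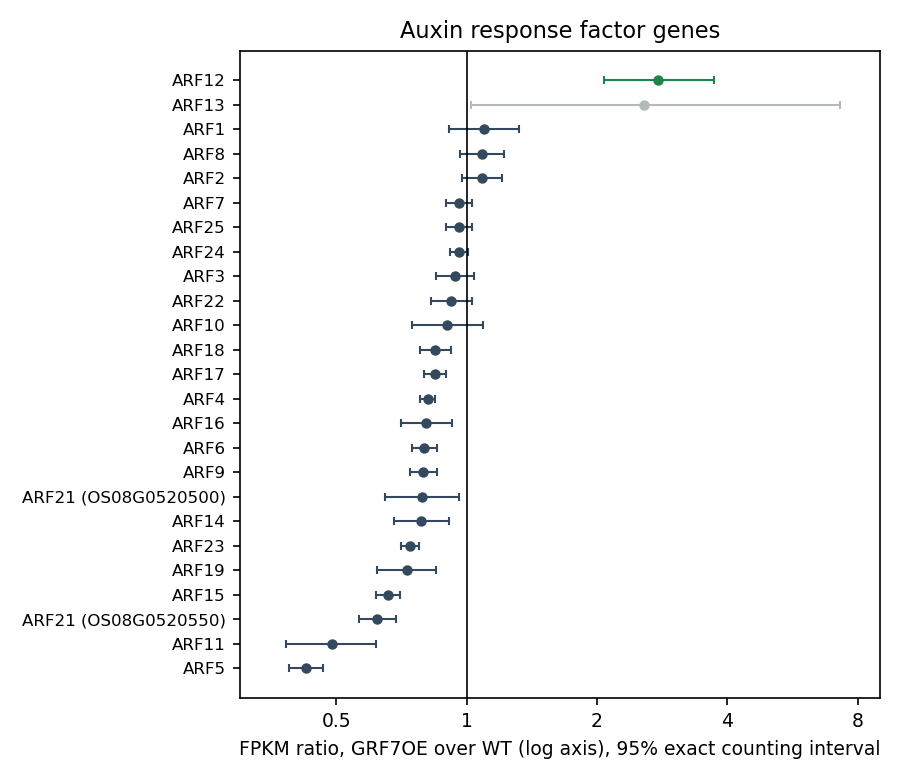
FPKM ratio of GRF7OE over WT (log axis) with 95% exact counting intervals for the 25 rows named as auxin response factors, in order of their ratio. ARF12 (green) is at 2.77 with an interval of 2.08 to 3.73, ARF13 (pale grey, under 1 FPKM on average) has an interval that starts just above 1, and most others lie at or left of 1.

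The rows beside the members mostly differed less than the members did. RAP identifiers are numbered along each chromosome, so the 4 rows on either side of a member in identifier order were taken as its neighbours. Of 32 neighbours 29 averaged 1 FPKM or more, and 1 of these was past 2-fold on the log2 scale. Such rows were also few among all genes, 3.24% upward and 1.25% downward. The members were picked with earlier results known, so their larger differences are no test against the neighbours. Beside CYP714B1 the log2 ratios of the 8 neighbours lay between -0.17 and 0.61, below its own 1.03. Beside ARF12 they lay between -0.38 and 0.49 in 7 neighbours, and beside CYP714D1 between -0.34 and 0.41 in 7. The 1 neighbour past 2-fold was OS03G0332201, the row after CYP714B2. It was at 12.8 FPKM in WT and 5.78 FPKM in GRF7OE, 2.22-fold lower [1.67 to 2.98], from about 160 and 71 reads. It has the same direction as CYP714B2, and the table gives it a protein of 138 residues, no name and no MSU identifier.

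**Figure D5:**
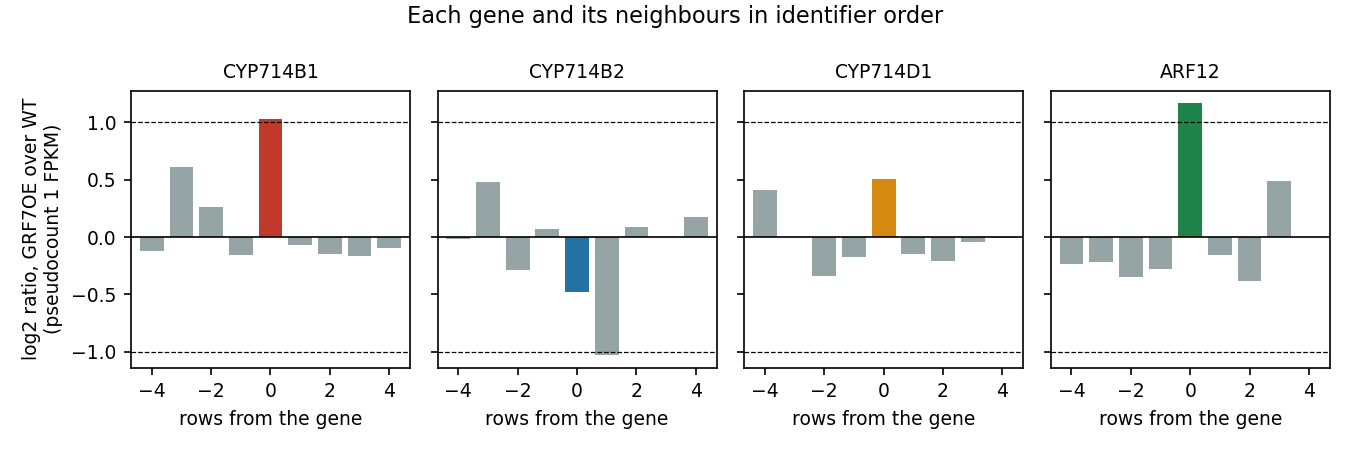
Log2 ratio of GRF7OE over WT (pseudocount 1 FPKM) of each gene (coloured bar at 0) and of the 4 rows before and after it in identifier order (grey bars, drawn where the mean is at least 1 FPKM), with dashed lines at 2-fold. CYP714B1 and ARF12 lie above the upper line among neighbours that stay inside both lines, and the row after CYP714B2 lies at -1.03.

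The loci of CYP714B1 and CYP714B2 resemble each other in what surrounds them. Within 4 rows each has an acid phosphatase 1 gene and a calmodulin-like calcium-binding protein gene, CML24 beside CYP714B1 and CML27 beside CYP714B2. The acid phosphatase rows OS07G0681200 and OS03G0332533 had log2 ratios of 0.26 and 0.18, on at most 25 reads per library, and CML24 and CML27 had -0.15 and -0.29. CYP714B1 also has an unnamed row on each side, OS07G0681250 and OS07G0681350. The RefSeq gene table of the Japonica Group (assembly ASM3414082v1) places CML24 directly next to CYP714B1, with no protein-coding gene between. OS07G0681250 had about 21 reads in WT and 18 in GRF7OE, and OS07G0681350 about 30 and 27. Both ratios were within counting error. With these rows added, the reads were 55 in WT and 60 in GRF7OE. Whether these rows overlap CYP714B1 was not tested.

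The genes nearest to each member in level have varied functions. Nearness was the distance in the plane of both libraries' log2(FPKM + 1), over these 2 libraries only. Nearest to CYP714B1 were a tropinone reductase homolog (OS11G0443700, distance 0.05) and a GDSL esterase/lipase (OS09G0247600, distance 0.06). Nearest to ARF12 were an actin (OS12G0163700, distance 0.04), at 2.37 FPKM in WT and 6.42 FPKM in GRF7OE, and a fatty acyl-CoA reductase (OS09G0567500, distance 0.06). Nearest to CYP714B2 were a bHLH factor (OS03G0188400) and a subunit of the initiation factor TFIID (OS06G0645901). Nearest to CYP714D1 were a COBRA-like protein (OS07G0690900) and an E3 ubiquitin ligase (OS04G0590900).

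The depth was about 16824990 reads over all genes in WT and about 17021472 in GRF7OE. OsGRF7 itself (OS12G0484900) was at 5.10 FPKM in WT and 70.7 FPKM in GRF7OE, 13.9-fold higher [11.9 to 16.2], in the direction of the labels. Leaf and shoot meristem marker genes differed in level between the libraries as well. Whether the tissue makeup differed was not tested. All 20 leaf marker rows that averaged 1 FPKM or more (of 24, with 3 at 0 in both) were higher in GRF7OE, with a median log2 ratio of 0.35 and a summed level of 36248 FPKM in WT and 46282 FPKM in GRF7OE. All 4 KNOX markers of the shoot meristem were lower, summing to 28.7 FPKM in WT and 13.6 FPKM in GRF7OE, and none was at 0. The KNOX gene OSH1 (OS03G0727000) was 1.25-fold lower [0.966 to 1.61], within counting error, as was the leaf row OS09G0296800. Over all genes 51.7% had a log2 ratio below 0. Root markers summed to 9.51 FPKM in WT and 9.30 FPKM in GRF7OE, with the nitrate transporter NRT2.1 at 0 in WT. Of 13 glutelin seed markers 10 were at 0 in both libraries. The part of these shifts in the values of the 4 genes was not tested.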

How the data were processed

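RNA of WT and GRF7OE seedlings was sequenced, 1 library each. Bowtie and Cuffdiff were used, per the submitters' processing notes. Neither tool versions nor a genome build were stated there. The authors deposited 1 table of 35677 genes with FPKM values, count columns, p-values with FDR and log2 ratios, per the file headers. The deposited count columns hold a normalised signal. They step by a fixed amount slightly under 1 per read, and of nonzero values up to 10000, 99.3% in the GRF7OE column and 99.2% in the WT column lie within 0.05 reads of a whole number of steps. Reads are these steps, rounded. A count test needs replicates and was not run. The header of a column for the direction of change names GRF7_RNAi, and that column was not used.

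Ratios are log2((GRF7OE FPKM + 1) / (WT FPKM + 1)) for genes averaging 1 FPKM or more, or plain FPKM ratios with 95% exact intervals. The counting and interval steps were tested on simulated data. By rule the text names the 4 members, OsGRF7, the 4 rows of each list farthest from 0 on the log2 scale, and the 2 genes nearest to each member. GID2, ARF6, ARF8, ARF17, ARF25, the named neighbours and the relatives below the filter were chosen after their values were seen. The members and lists were chosen with earlier results of these data known. All 4 members matched the RefSeq table by name, and its coordinates were not used because the builds may differ. No sequences are shown. Alternatives were pseudocounts of 0.1 and 0.5, other filters, 2 scalings and the count columns. The work used Matplotlib 3.10.9, pandas 2.3.3, SciPy 1.17.1, NumPy 2.4.6 and Python 3.11.15.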

Additional observations from a re-analysis of the deposited data

How the results depend on the processing

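The log2 ratios of the 4 genes were also taken with pseudocounts of 0.1 and 0.5, both scalings, the count columns and as plain FPKM ratios. All kept their direction, but a pseudocount cannot change it, and the scalings were small, at log2 -0.02 and 0.09. They also stayed within their counting intervals, which are built around the plain ratio. These outcomes were thus largely fixed in advance and are no check of the differences. The log2 ratios ranged from 0.97 to 1.95 for CYP714B1 and from -0.56 to -0.47 for CYP714B2. For CYP714D1 the range was 0.44 to 0.79 and for ARF12 1.09 to 1.47. Genes at least 2-fold higher and lower, 758 and 293, came to 1147 and 512 with a pseudocount of 0.1, 481 and 165 among genes averaging 5 FPKM or more, and 1198 and 537 as a plain FPKM ratio, an alternative added after seeing the data. From the count columns the lower ones were 505. Gibberellin 2-oxidases below 0 were 2, against 7 with no filter on low values and 1 with 5 FPKM or more on average, where more or fewer rows are counted. No paired analysis was possible because each group has 1 library. Depth limits CYP714B1 most, at about 4 reads in WT.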

Other observations

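Some relatives of the 4 genes were left out of the counts by the filter of at least 1 FPKM, and were chosen here after their values were seen. ARF13 (OS04G0690600) had about 7 reads in WT and 18 in GRF7OE, 2.57-fold higher [1.03 to 7.29], the direction of ARF12. GA20ox3 had about 8 reads in WT and 1 in GRF7OE, 7.53-fold lower [1.01 to 334]. GA3ox2, which makes active gibberellins, had about 6 reads in WT and 8 in GRF7OE, and GA3ox1 had none in either library.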
